A study of Homo sapiens with 6 samples.

Results

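The genes described here are 39 human splicing factor genes, taken by name from the gene table: 12 SR proteins (SRSF1 to SRSF12), 4 SR-like activators and matrix proteins, 6 kinases that phosphorylate SR proteins, and 17 heterogeneous nuclear ribonucleoproteins (hnRNPs). All 39 had a row among the 53719 of the table, 37 under the current symbol and 2 under an older one (HNRPDL for HNRNPDL and HNRPLL for HNRNPLL). SRSF2 and HNRNPA1 were listed at 0 in every library, and the other 37 were tested. The rule uses gene names and no measured value, but the members were chosen with earlier results of these data known.

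SR proteins carry RNA recognition motifs and a tail rich in arginine-serine dipeptides. They bind mostly to exonic enhancers and help the spliceosome to recognise the exon, and SRPK and CLK kinases phosphorylate the tail, which sets their location and activity. The hnRNPs coat nascent RNA and often act against SR proteins at the same exon, by silencing splice sites, and many take part in RNA stability and transport as well. Both families are abundant in pluripotent stem cells, and many of their genes control their own level through exons that send the transcript to nonsense-mediated decay.

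RNA was measured in H9, a widely used line of human embryonic stem cells, and both groups were grown in RSeT, a medium sold for keeping such cells in a state closer to the naive embryo. The comparison asks what 48 h with an antisense gapmer against alpha satellite RNA (ALR) did to gene expression. A gapmer is a short oligonucleotide with a DNA core, which directs RNase H to the RNA it pairs with, and alpha satellite repeats make up human centromeres. The 3 knockdown libraries (named Sense3 in the labels, here knockdown a, b and c) received the ALR gapmer, and the 3 control libraries (control a, b and c) received a control gapmer. All 6 come from 1 cell line, and 1 gapmer against the target is named. The labels do not say that the libraries of a group came from separate cultures, so p-values measure the spread between these libraries, which may be technical. The targeted RNA was not analysed here, and the groups are named by their labels alone.

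Total counts ran from 25087629 to 36576752 per library. Knockdown library a had counts in 29678 rows and the other 5 libraries in 25898 to 26788. In edgeR's quasi-likelihood test, 155 of 19721 genes (0.786%) passed an adjusted p of 0.05 (Benjamini-Hochberg). The median log2 fold change over all tested genes, knockdown minus control, was 0.02. Embryonic stem cell markers were present, with a summed level of 5423 to 6046 CPM (counts over a TMM-scaled library total) in the knockdown libraries and 5558 to 5680 in the controls over 9 of 10 markers, SOX2 being listed at 0. Naive markers (10 of 10) summed to 74.4 to 82.8 CPM in the knockdown, with the controls inside that range. KLF17 reached at most 0.353 CPM. Primed markers summed to 354 to 395 CPM and 340 to 370 CPM (6 of 8, with THY1 and CD24 at 0 or without a row). No marker of these lists, or of trophectoderm and amnion, fibroblast, neural, or mesoderm and endoderm, passed the adjusted threshold. The trophectoderm and amnion list (8 of 8) lay at 69.5 to 71.8 CPM in the knockdown, against 73.9 to 80.4 in the controls. Most of this sum was TFAP2C (mean 54.0 CPM in the knockdown and 58.1 in the control). GATA2, GATA3, CDX2, TFAP2A, HAND1 and KRT7 each stayed at or under 0.952 CPM in every library. The mesoderm and endoderm list (8 of 8) lay at 15.4 to 16.9 CPM and 12.1 to 15.1 CPM. Most of this sum was MIXL1 (mean 13.1 and 11.3 CPM). The part of these lists in the results was not tested, and in bulk RNA fewer cells of a type cannot be told apart from less RNA per cell.

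None of the 37 splicing factors passed the adjusted threshold in edgeR's quasi-likelihood test, against 0.786% of all tested genes, and none did with limma-voom (0.882%) or DESeq2 (4.05% of the 13219 genes to which it gave an adjusted p). The lowest adjusted p was 0.124, for CLK1. At an unadjusted p under 0.05 there were 3 members (8.11%), against 14.3% of all tested genes; DESeq2 and limma-voom each gave 3 as well. These were SRSF9, higher in the knockdown (as 6.68% of all tested genes), and CLK1 and HNRNPLL, lower (7.57%). Fold changes ran from -0.25 to 0.20 on the log2 scale, and every 95% interval lay between -0.40 and 0.36. The genes were well covered, with mean counts from 350 (SRSF12) to 32218 (SRRM2) and standard errors of 0.06 to 0.10. In 24 of 37 members (64.9%) the fold change was above 0, against 54.4% of all tested genes, and the median was 0.03. That count was 14 of 37 without knockdown b (51.2% of all genes) and 12 of 37 with the trend of fold change on gene span removed (47.2%).

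**Figure D1:**
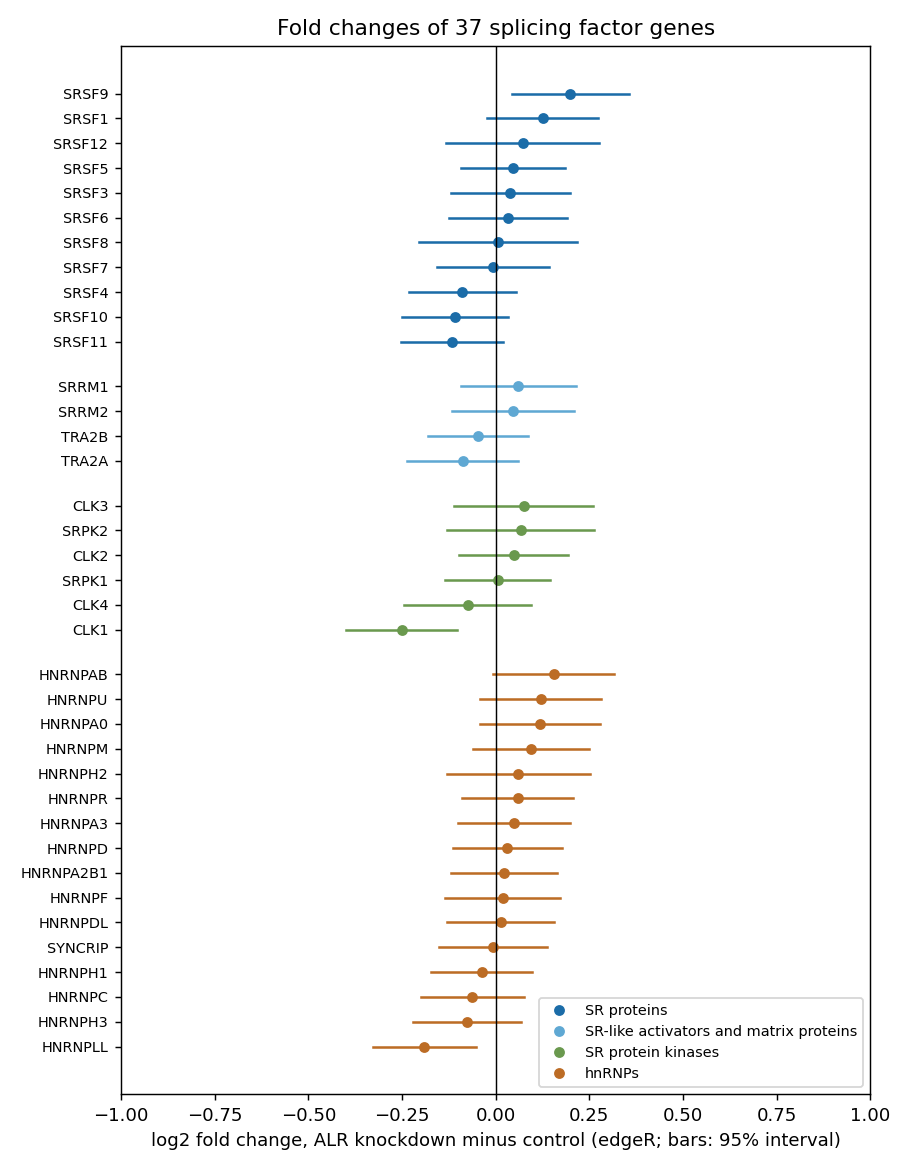
Log2 fold changes (knockdown minus control) of the 37 tested splicing factor genes, with 95% intervals from edgeR, ordered within SR proteins, SR-like proteins, kinases and hnRNPs. Points lie between -0.25 (CLK1) and 0.20 (SRSF9), and the intervals of 3 genes (SRSF9, CLK1 and HNRNPLL) leave out 0.

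SR proteins and hnRNPs had nearly equal medians. The median log2 fold change was 0.03 over the 11 SR proteins tested (7 above 0, 4 below) and 0.03 over the 16 hnRNPs (11 above 0, 5 below), a difference of 0.0067. The summed level of the hnRNPs was 3.16, 3.20 and 3.18 times that of the SR proteins in the knockdown libraries a, b and c, against 3.18, 3.12 and 3.11 times in the controls. The ranges of this ratio overlapped. The sums lack SRSF2 and HNRNPA1, whose rows were at 0, and the hnRNPs of the other lists. They are not scaled by exon length, so the ratio is not one of the whole families. The members together took 1.08% to 1.16% of the counts in the knockdown and 1.08% to 1.11% in the control libraries. The 4 SR-like genes had a median of -0.00076 and the 6 kinases one of 0.03.

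In 7 of 37 members (18.9%) the 3 knockdown libraries lay wholly apart from the 3 controls, the same share as among all tested genes (18.9%). SRSF9 and SRSF12 lay higher (9.55% of all tested genes did so), and CLK1, HNRNPLL, SRSF11, HNRNPC and CLK4 lower (9.37%).

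**Figure D2:**
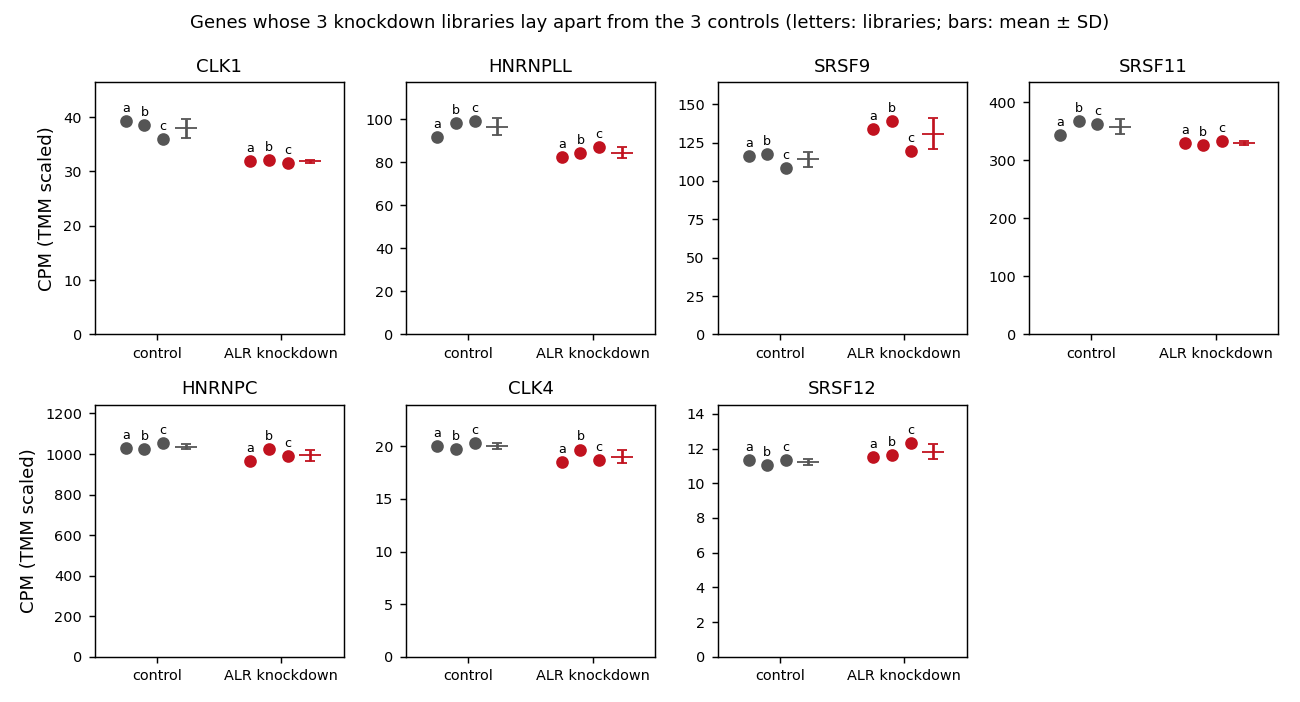
CPM (TMM scaled, axes from 0) in each library for the 7 genes whose groups did not overlap, with letters for libraries and bars for mean ± SD of 3. CLK1 runs from 31.6 to 32.1 CPM in the knockdown and 36.0 to 39.3 CPM in the control libraries, and the gaps of CLK4 and HNRNPC are small beside their levels.

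Among the SR proteins, SRSF9 had the largest difference. SRSF9, which shares its domain layout with SRSF1, is encoded at chr12:120461668-120469793 (GRCh38, ENSG00000111786.8). It had 133.9, 139.2 and 119.7 CPM in the knockdown libraries a, b and c, against 116.4, 117.3 and 108.5 CPM in the controls. All knockdown values lay above all control values, with knockdown c the nearest to them. The means were 130.9 ± 10.1 and 114 ± 4.84 CPM (SD, n = 3 each). The log2 fold change was 0.20 ± 0.07 (SE; 95% interval 0.04 to 0.36), with an edgeR p of 0.0169 and an adjusted p of 0.240. Its exons overlap those of GATC, so that reads of the pair could be shared. Over 17 alternatives of processing its fold change was 0.13 to 0.24, with adjusted p from 0.0304 to 0.619, and 1 of them passed. That was the edgeR fit without knockdown c (0.24, adjusted p = 0.0304), in which 6.4% of all genes passed.

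SRSF11, a U2AF-associated SR protein at chr1:70205682-70253052 (ENSG00000116754.13), had 329, 326 and 334 CPM in the knockdown and 343, 368 and 361 CPM in the control libraries. The groups lay apart by less than the spread among the controls. Its log2 fold change was -0.12 ± 0.06 (SE; 95% interval -0.25 to 0.02; edgeR adjusted p = 0.428). SRSF12 (chr6:89095959-89118081, ENSG00000154548.8), a relative of SRSF10, was among the lowest, at 11.5, 11.6 and 12.3 CPM against 11.3, 11.05 and 11.3 CPM. Its log2 fold change of 0.07 ± 0.09 (SE) was smaller than its error.

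Of the 11 SR proteins tested, the most abundant per exon length were SRSF6 and SRSF1. SRSF2, listed at 0, was not ranked. SRSF6 had 302, 309 and 264 CPM in the knockdown and 281, 283 and 291 CPM in the control libraries, and the log2 fold change was 0.03 ± 0.07 (SE; edgeR adjusted p = 0.879). Knockdown a and b lay above all controls and knockdown c below them. SRSF1, the first SR protein to be described and a binder of purine-rich exonic enhancers, had 193, 208 and 181 CPM against 182, 173 and 178 CPM. Knockdown c lay inside the control range and a and b above it, and the fold change was 0.13 ± 0.07 (SE; edgeR adjusted p = 0.431).

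The remaining SR proteins overlapped between the groups. SRSF3, the smallest SR protein, had a log2 fold change of 0.04, SRSF5 one of 0.05 and SRSF4 one of -0.09. SRSF7, which carries a zinc knuckle, was at -0.01 and SRSF8 at 0.0066. SRSF10, which acts as a repressor when it is dephosphorylated, was at -0.11. All of these were within 0.12 of 0, and none had an interval that left out 0.

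Among the SR-like genes, TRA2A and TRA2B, which bind GAA-rich exonic enhancers, were below 0 and the nuclear matrix proteins SRRM1 and SRRM2 above it. TRA2A had 131, 141 and 149 CPM in the knockdown and 149, 154 and 145 CPM in the control libraries, or -0.09 ± 0.07 as a log2 fold change (SE; edgeR adjusted p = 0.597). The values overlapped through knockdown c. TRA2B was at -0.05. SRRM1 had 319.6, 333 and 292 CPM against 314, 301 and 290.1 CPM, or 0.06 ± 0.07 as a log2 fold change (SE; edgeR adjusted p = 0.743). SRRM2, a scaffold of nuclear speckles where splicing factors are stored, had a fold change of 0.05.

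Of the kinases, CLK1 had the largest difference of the 37 genes and the smallest p. CLK1, a nuclear kinase that phosphorylates SR proteins, is encoded at chr2:200853009-200864744 (ENSG00000013441.15). It had 32.0, 32.1 and 31.6 CPM in the knockdown and 39.3, 38.6 and 36.0 CPM in the control libraries. The knockdown libraries lay close together and below every control. The means were 31.9 ± 0.261 and 38.0 ± 1.75 CPM (SD, n = 3 each). The log2 fold change was -0.25 ± 0.07 (SE; 95% interval -0.40 to -0.10), an edgeR p of 0.00315 and an adjusted p of 0.124. The fold change stayed between -0.31 and -0.22 over the 17 alternatives of processing, with adjusted p from 0.0468 to 0.370. The value below 0.05 came from an edgeR fit with the trend of fold change on gene span removed (-0.31, adjusted p = 0.0468), in which 1.47% of all genes passed.

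CLK4, the kinase nearest to CLK1 in sequence (75.7% identity over aligned coding columns, gaps included, longest shared run 34 bases), lay slightly lower as well. It is encoded at chr5:178602664-178630615 (ENSG00000113240.12) and had 18.5, 19.7 and 18.7 CPM against 20.0, 19.7 and 20.3 CPM. Knockdown b and control b were nearly equal, and the log2 fold change was -0.08 ± 0.08 (SE; edgeR adjusted p = 0.709). CLK3 had 39.6, 44.7 and 48.0 CPM in the knockdown and 45.1, 41.3 and 39.2 CPM in the control libraries, or 0.07 ± 0.08 as a log2 fold change (SE; edgeR adjusted p = 0.741) with overlapping groups. CLK2 was at 0.05.

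The SRPK kinases, which act largely in the cytoplasm and send SR proteins to the nucleus, were near 0. SRPK1 was at 0.0057. SRPK2 was at 0.07, and this rested on 1 library: knockdown c had 172 CPM, whereas the other 5 libraries had 134 to 148 CPM. Without knockdown c the log2 fold change of SRPK2 was -0.07.

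Among the hnRNPs, HNRNPLL was the lowest. HNRNPLL, known for silencing exons of the CD45 transcript in lymphocytes, is encoded at chr2:38561978-38603586 (ENSG00000143889.15). It had 82.4, 84.2 and 87.2 CPM in the knockdown and 92.0, 98.2 and 99.3 CPM in the control libraries, so that every knockdown value lay below every control. The means were 84.6 ± 2.42 and 96.5 ± 3.96 CPM (SD, n = 3 each). The log2 fold change was -0.19 ± 0.06 (SE; 95% interval -0.33 to -0.05), with an edgeR p of 0.0105 and an adjusted p of 0.201. Over 17 alternatives the fold change was -0.23 to -0.16, with adjusted p from 0.0441 to 0.571, and 1 of them passed. That was the edgeR fit without knockdown c (-0.23, adjusted p = 0.0441), in which 6.4% of all genes passed.

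HNRNPAB was the highest of the hnRNPs, with 186, 193 and 162 CPM in the knockdown and 166, 163 and 158 CPM in the control libraries. Knockdown a and b lay above all controls and knockdown c among them. The log2 fold change was 0.15 ± 0.07 (SE; 95% interval -0.0072 to 0.32; edgeR adjusted p = 0.375). Over 17 alternatives it was 0.09 to 0.21, with adjusted p from 0.0381 to 0.702. Without knockdown c it was 0.21 with an edgeR adjusted p of 0.0381. In that fit 3 of 37 members passed (SRSF9, HNRNPAB and HNRNPLL), as did 6.4% of all genes tested. At an unadjusted edgeR p under 0.05 there were 12 of 37 members, a larger share than the 19.3% of all genes. With all 6 libraries the members had the smaller share (8.11% against 14.3%).

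Of the 16 hnRNPs tested, HNRNPC and HNRNPF were the most abundant per exon length. HNRNPA1, listed at 0, and the hnRNPs of the other lists were not ranked. HNRNPC, which binds uridine tracts in nascent RNA (chr14:21209136-21269494, ENSG00000092199.17), had 967, 1024 and 989 CPM in the knockdown and 1031, 1026 and 1053 CPM in the control libraries. Knockdown b and control b nearly touched, and the log2 fold change was -0.06 ± 0.06 (SE; edgeR adjusted p = 0.704). HNRNPF, which binds G tracts, had 339, 364 and 310.3 CPM in the knockdown, a range that enclosed the controls at 334, 333 and 334 CPM. Its fold change was 0.02 ± 0.07 (SE; edgeR adjusted p = 0.933).

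The other hnRNPs overlapped between the groups and lay within 0.12 of 0. HNRNPU, a nuclear scaffold protein, and HNRNPA0 were both at 0.12, HNRNPM at 0.09, and HNRNPR at 0.06. HNRNPH2 was at 0.06, HNRNPA3 at 0.05, HNRNPD, which binds AU-rich elements, at 0.03, HNRNPA2B1 at 0.02 and HNRNPDL at 0.01. SYNCRIP was at -0.0075, HNRNPH1 at -0.04 and HNRNPH3 at -0.08. Near copies within the family did not all lie on the same side. HNRNPH1 and HNRNPH2 share 87.6% of their coding bases, with a longest identical run of 50 bases. HNRNPR and SYNCRIP share 74.4% of aligned coding columns, gaps included. The intervals of these genes all held 0.

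HNRNPA1, the hnRNP best known as a counterpart of SRSF1 in splice site choice, was listed at 0, and a near-identical copy of it carried counts. The coding sequence of HNRNPA1L2 has 963 bases, and the HNRNPA1 transcript compared, chosen as the closest in length, has as many. They differ at 15 bases (98.4% identity, longest identical run 174 bases). HNRNPA1L2 had 3465, 4086 and 2665 counts in the knockdown and 3197, 3198 and 3831 in the control libraries, or 122, 122 and 105 CPM against 112, 103 and 105 CPM. The groups overlapped, and the log2 fold change was 0.13 ± 0.07 (SE; edgeR adjusted p = 0.472). Of 33 rows named as HNRNPA1 pseudogenes, 8 had counts, 1821 in all over the 6 libraries. How the authors treated reads that align to both genes is not given in the sources used here, so no level is assigned to HNRNPA1.

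SRSF2, an SR protein that binds exonic enhancers and is a relative of SRSF8, was likewise listed at 0 in all libraries. The aligned coding sequences of SRSF2 and SRSF8 had 557 identical columns of 858 (64.9%), with 100 mismatches and 201 gap columns. MFSD11, whose exons overlap those of SRSF2, had 539 to 868 counts per library. Exons of 18 of the 39 members overlap another annotated gene, and the strand setting of the counting is not given in the sources used here. The values of those 18 may include reads of a neighbour, or lack reads that a neighbour shares.

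Levels of the 37 genes, as CPM per kilobase of exon, spanned 66.1-fold. HNRNPC was highest, at 139 per kilobase (mean of 6 libraries, range 132 to 144), followed by HNRNPF (103), HNRNPA2B1 (90.2), HNRNPA3 (89.6) and HNRNPAB (79.97). The first member outside the hnRNPs was SRRM2 (79.5), and the first SR proteins were SRSF6 (62.8) and SRSF1 (55.6). At the bottom were CLK1 (6.76), SRSF8 (3.29), SRSF12 (2.53), CLK4 (2.46) and CLK3 (2.10). Of the 36 pairs of neighbours in this order, 26 had overlapping ranges over the 6 libraries, so that their order is not resolved, and 10 lay apart, HNRNPC and HNRNPF among them. Exon lengths are those of all annotated exons merged in GENCODE 29, which may not be the transcripts used in these cells, and the order is approximate.

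**Figure D3:**
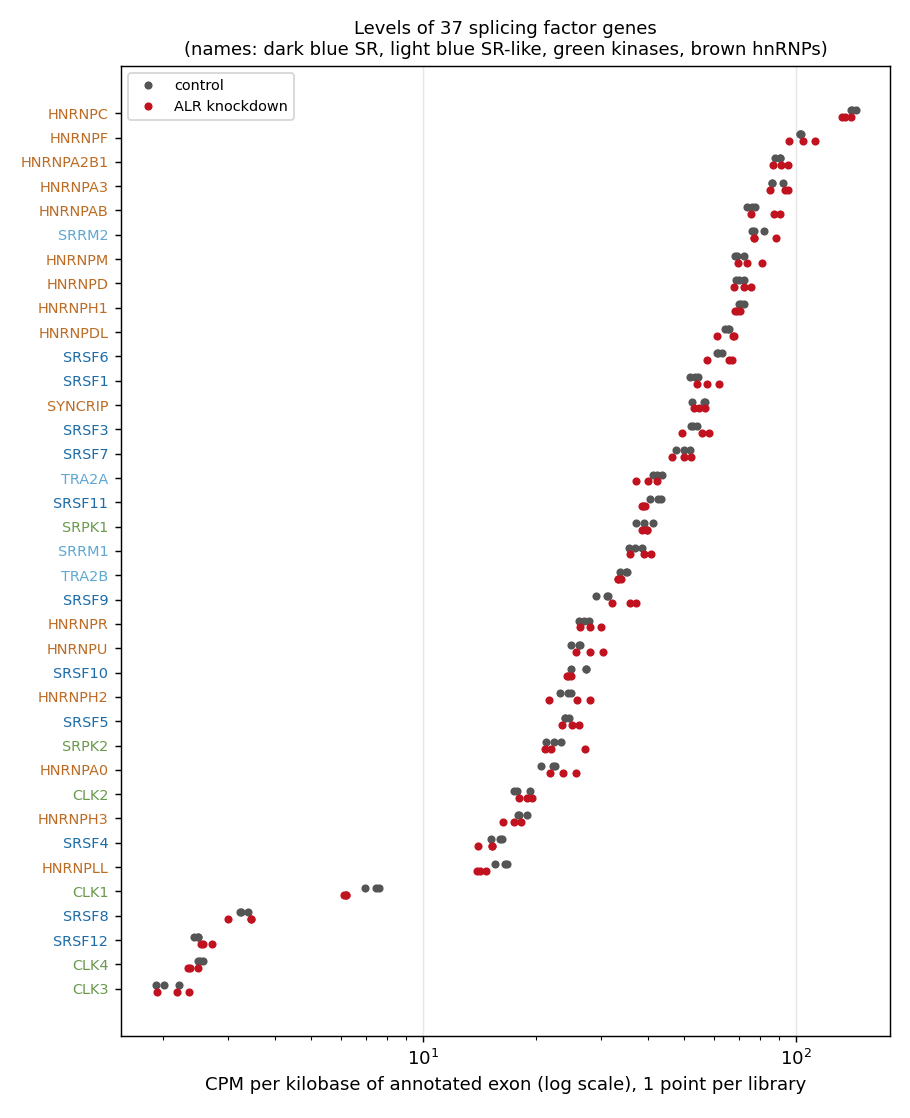
CPM per kilobase of annotated exon (log axis) in each of the 6 libraries for the 37 genes, ordered by their mean. The hnRNPs hold the 5 highest places, from HNRNPC (139 per kilobase) to HNRNPAB (79.97), and the kinases CLK1, CLK4 and CLK3 are among the 5 lowest.

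The knockdown libraries spread more than the controls, and most hnRNPs and SR proteins did so in a shared direction. Knockdown b was the highest of the 3 knockdown libraries in 27 of 37 genes, and knockdown c the lowest in 23. The share of all tested genes with this order was not counted, so it is not known to be particular to these genes. Of the 16 hnRNPs, 13 were highest in b and 13 lowest in c, and of the 11 SR proteins 9 were highest in b and 6 lowest in c. The median deviation of the hnRNPs from each gene's mean over 6 libraries (log2) was 0.02, 0.08 and -0.06 in the knockdown libraries a, b and c, against -0.02, 0.0033 and -0.0039 in the controls. For the SR proteins it was 0.0061, 0.08 and -0.04, and -0.03, 0.0097 and -0.03. Both families thus stood highest in knockdown b and lowest in knockdown c. The kinases did not: 2 of 6 were highest in b and 2 were lowest in c. Their median deviations in the knockdown libraries a, b and c were -0.06, 0.02 and 0.03. The range among the knockdown libraries exceeded that among the controls in 28 of 37 members (75.7%; median log2 range 0.164 against 0.087), and in 63.4% of 15140 tested genes with a mean count of at least 50 (0.220 against 0.173).

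**Figure D4:**
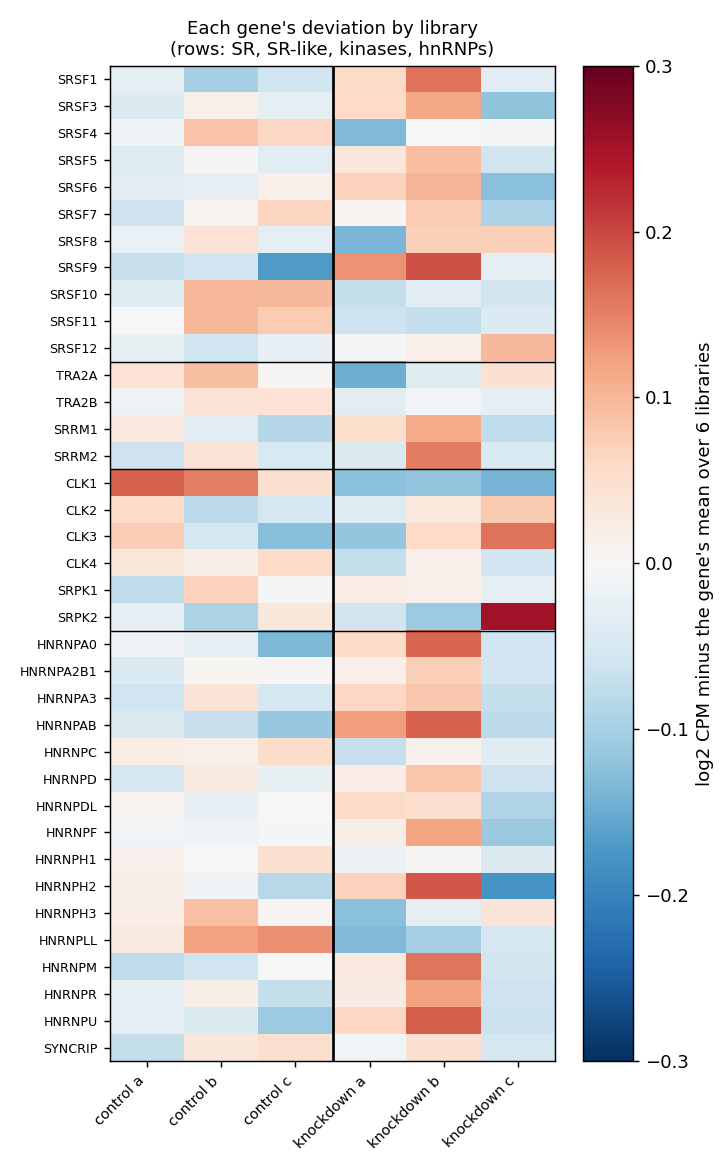
Deviation of each of the 37 genes (rows) from its mean over the 6 libraries (columns), as log2 CPM. The column of knockdown b is mostly above 0 and that of knockdown c mostly below among the hnRNPs, while SRPK2 and CLK3, among others, run the other way in knockdown c.

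Fold changes were also set against gene length. The 37 members have a median span of 22123 bases, against 34324 bases over the 15964 tested genes with an annotated span. Across the members the fold change and log10 span had Pearson's r = -0.19 and Spearman's rho = -0.21 (n = 37 genes, which share the same 6 libraries and are not replicates). With the trend on span removed, the SR protein median was -0.036 and the hnRNP median -0.017, against -0.01 over all tested genes, so both medians moved below 0.

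Other genes of the splicing machinery had a similar median, and their lists differed. Of 99 genes in 7 further lists, 95 were tested and 4 were listed at 0. CELF2 alone passed the adjusted threshold in edgeR's quasi-likelihood test, 16 (16.8%) had an unadjusted p under 0.05 and 18 (18.9%) had groups that did not overlap, against 14.3% and 18.9% of all tested genes. The median log2 fold change over the 95 was 0.02, as over all genes.

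CELF2, an RNA-binding regulator of alternative exons in muscle and brain, fell in the knockdown. The gene lies at chr10:10798397-11336675 (GRCh38), a long span, and antisense genes overlap it. It had 114, 112 and 135 CPM in the knockdown and 185, 156 and 160.5 CPM in the control libraries, with no overlap. The means were 120.4 ± 13.1 and 167 ± 15.5 CPM (SD, n = 3 each). The log2 fold change was -0.47 ± 0.09 (SE; 95% interval -0.67 to -0.28), with an edgeR p of 0.000183 and an adjusted p of 0.0317. The call was kept in 11 of 17 alternatives. It was lost with the span trend removed (-0.38, edgeR adjusted p = 0.0678) and, in edgeR fits, without knockdown a (adjusted p = 0.0865), knockdown b (0.129), control a (0.192), control b (0.111) or control c (0.184).

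RBFOX3, a neuronal splicing regulator, came next, with 32.1, 28.3 and 24.9 CPM in the knockdown and 19.0, 18.0 and 22.7 CPM in the control libraries. The groups did not overlap, but the gene did not pass (log2 fold change 0.51 ± 0.11 SE, edgeR adjusted p = 0.0582; past the threshold in 6 of 17 alternatives). The list of cell-type regulators that holds CELF2 and RBFOX3 had 6 genes above 0 and 13 below, with a median of -0.07. Of its 19 genes, 5 (26.3%) had an unadjusted edgeR p under 0.05, against 14.3% of all tested genes. In 6 (31.6%) the groups lay apart, against 18.9%.

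Among the other hnRNPs and related proteins (12 tested, median 0.04), PTBP2, the neuronal form of the polypyrimidine tract binding protein, had 271, 276 and 337 CPM in the knockdown and 343, 352 and 362 CPM in the control libraries. The groups lay apart, with knockdown c close to the controls, and the log2 fold change was -0.26 ± 0.08 (SE; edgeR adjusted p = 0.196). Its relative PTBP1 was at 0.12 (edgeR adjusted p = 0.503). Among other SR-related proteins (13 tested, median -0.01), PPP1CA, a catalytic subunit of protein phosphatase 1, was at 0.21 (edgeR adjusted p = 0.181) and the kinase DYRK1A at -0.18 (0.268).

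The core spliceosome lists lay slightly above 0, as did the median over all tested genes (0.02), and held no gene past the threshold. For U1 and Sm proteins (11 tested) the median was 0.02, and SNRPN was at -0.29 (edgeR adjusted p = 0.282) and SNRPB at 0.19 (0.310). For U2 and recognition of the 3′ splice site (16 tested) the median was 0.06, with the SF3b subunit SF3B5 at 0.30 (edgeR adjusted p = 0.182). For the U4/U6.U5 tri-snRNP (10 tested) the median was 0.07. In that list 4 genes had an unadjusted edgeR p under 0.05, all higher in the knockdown (as 6.68% of all tested genes). They were led by SART1 at 0.25 (edgeR adjusted p = 0.232), whose groups overlapped, and PRPF31 at 0.19 (0.299). The list was not tested as a set. Exon junction and nonsense-mediated decay genes, the machinery that removes the poison-exon transcripts of SR proteins and hnRNPs, had a median of 0.0078 over 14 genes, and 0 of them had an unadjusted p under 0.05 in edgeR, against 14.3% of all tested genes. With 14 genes, that count does not set the list apart.

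**Figure D5:**
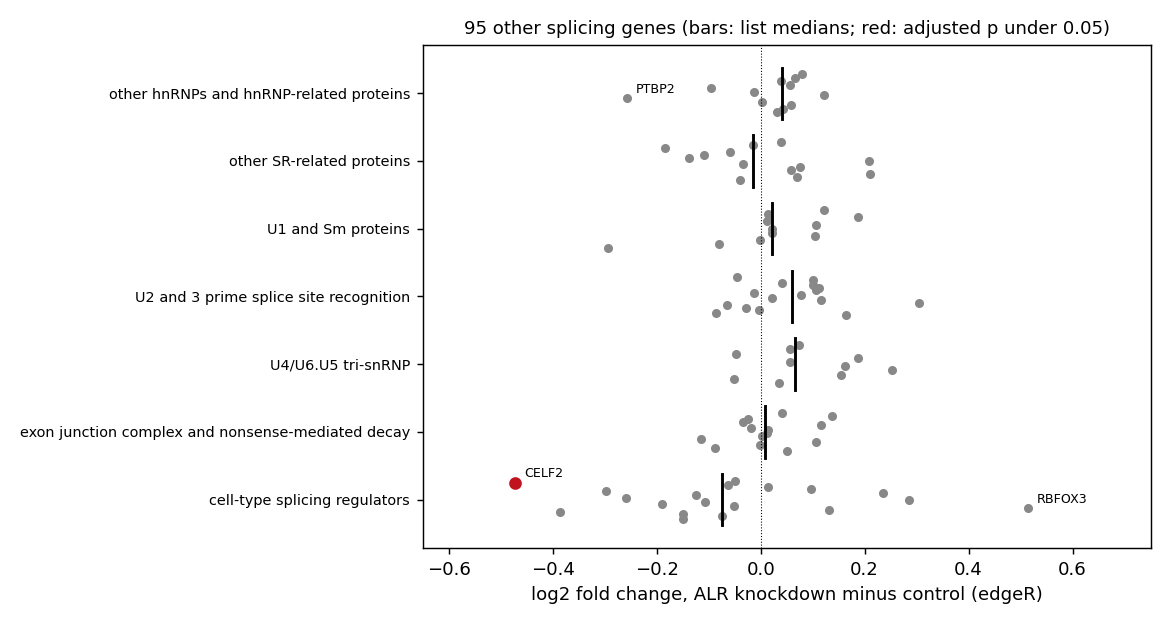
Log2 fold changes (knockdown minus control, edgeR) of 95 other splicing genes in 7 lists, 1 point per gene, with bars for list medians. CELF2 at -0.47 is the only point past the adjusted threshold, and the list medians lie between -0.07 and 0.07.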

How the data were processed

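RNA sequencing libraries from 3 ALR knockdown and 3 control samples were compared. The authors deposited raw read counts per gene symbol in 1 table. Per the submitters' processing notes, Trimmomatic 0.39, STAR 2.7.8a and featureCounts were used, with build hg38. The annotation, strand setting and treatment of multi-mapping reads are not given in the sources used here. Column totals ran from 25087629 to 36576752 and the members' mean counts from 350 to 32218. The common biological coefficient of variation over all tested genes was 0.103.

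Counts were tested with edgeR 4.0.16 (R 4.3.3; filterByExpr, TMM, glmQLFit and glmQLFTest, two-sided) with the group as the only term, and p-values were adjusted by the Benjamini-Hochberg method over all 19721 genes kept, with a threshold of 0.05. CPM values used TMM-scaled library sizes. The script was tested on simulated data. DESeq2 1.42.0 and limma 3.58.1 (voom) were alternatives, among 17 in all. Family medians have no test. Of the table's rows, 32832 were matched to GENCODE 29 (GRCh38), which gave positions, spans (of the gene) and merged exon lengths. Coding sequences were aligned with Biopython 1.88, for each pair from the complete transcripts closest in length. Identity is the share of all alignment columns, gaps included, that were identical. Rows named as calendar dates (28) stayed in the totals and are not named.

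The members, the lists of other splicing genes and markers, and the tests were chosen with earlier results of these data known. Values per library are given for members past the threshold, for those whose groups did not overlap (mean count of at least 50), for the 2 most abundant SR proteins and hnRNPs, and for the highest and lowest fold change in each family. Of each other list, genes past the threshold and at most 2 with the smallest p under 0.05 are named. PTBP1, and the values per library of SRPK2, are given in addition, chosen after they were seen. Protein sequences were not used. The coding sequences compared for HNRNPA1 and its copy are not reported here.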

Additional observations from a re-analysis of the deposited data

How the results depend on the processing

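No member passed the adjusted threshold in 15 of 17 alternatives, in which 0.127% to 4.05% of the genes with an adjusted p did. With the trend on gene span removed 1 passed (CLK1), and leaving out 1 library gave 0 to 3, the 3 being without knockdown c. The SR protein median was -0.036 with the span trend removed, and -0.017 (without knockdown b) to 0.035 leaving out 1 library. The difference SR minus hnRNP was -0.019 with the span trend removed, and -0.031 (without knockdown c) to 0.0067 leaving out 1 library. The cause was not tested. The hnRNP median moved by less than the spread between libraries in each alternative. It was below 0 without knockdown b (-0.015) and with the span trend removed (-0.017). Of 629 member values under the alternatives, 40, in 16 genes, had the opposite sign to the value reported, none over 0.072 in size, and 21 members never did. With the span trend removed these were SRSF3 (-0.021), SRSF6 (-0.036), SRSF8 (-0.065), SRRM2 (-0.00044), CLK2 (-0.0035), SRPK1 (-0.0083), HNRNPA2B1 (-0.020), HNRNPA3 (-0.011), HNRNPD (-0.014), HNRNPDL (-0.052), HNRNPF (-0.026) and HNRNPH2 (-0.0094). With library size alone they were SRSF7 (0.020) and SYNCRIP (0.019), with upper quartile scaling SRSF7 (0.010) and SYNCRIP (0.0097), and thinned to the smallest library SRSF8 (-0.036) and SRPK1 (-0.0056). Leaving out 1 library in turn gave these ranges: SRSF3 -0.017 to 0.086, SRSF6 -0.017 to 0.080, SRSF7 -0.054 to 0.025, SRSF8 -0.046 to 0.071, SRRM2 -0.029 to 0.077, CLK3 -0.0093 to 0.14, SRPK1 -0.022 to 0.037, SRPK2 -0.072 to 0.13, HNRNPA2B1 -0.016 to 0.034, HNRNPD -0.010 to 0.049, HNRNPDL -0.015 to 0.040, HNRNPF -0.045 to 0.056, HNRNPH2 -0.030 to 0.13 and SYNCRIP -0.039 to 0.015. Libraries of the same letter (a, b and c) deviated little together (correlation of deviations from group means 1.23e-05, 0.116 and -0.03). This does not settle whether the letters pair the libraries. With the replicate block, edgeR called 0 members, 4 had an unadjusted p under 0.05, and 1.99% of all genes passed against 0.786% without it.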

Other observations

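Besides SRSF2 and HNRNPA1, further rows of genes that most cells use were listed at 0 in all 6 libraries. Among the other splicing genes these were HNRNPUL2, LUC7L2, PRPF6 and SMG8, and the row of TUBA1B, an alpha-tubulin gene, was at 0 as well. These rows were chosen after their values were seen, and no level is assigned to those genes. Rows of processed copies of HNRNPA3 (5 rows) held 2739 counts in all, which is 2.77% of the counts of the parent row.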
